A study of Mus musculus with 4 samples.

Results

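The hyaluronan system was followed in the fetal mouse penis through 7 genes: Cd44, Has1, Has2, Has3, Vcan, Hapln1 and Tnfaip6, which are 7 of the 32287 features counted in each library. They were chosen from their measured levels across cell populations and between the genotypes in these same libraries, so their levels and their differences between genotypes are given below as a description and support nothing by themselves. Where a fit over all genes of a population placed a member past its threshold, that is stated as a call, for comparison with the other genes, and without a p-value. Single cells of male genitalia at embryonic day 16.5 (E16.5) were profiled with a 10x Genomics 3' kit in 2 DTA- and 2 DTA+ libraries. Every embryo came from a cross of a male with Nr5a1-Cre and a Rosa-LSL-tdTomato allele to a Rosa-LSL-DTA f/f female, so that each carried a Rosa-LSL-DTA allele, which makes diphtheria toxin A only after Cre removes a stop cassette. DTA- embryos lacked Cre and are labelled WT, and DTA+ embryos carried Nr5a1-Cre, which directs the toxin to the cells in which it is active. The paper's methods list the tdTomato allele for ablated embryos, its control genotype does not name it, and the labels do not say whether DTA- embryos carried it. Nr5a1-Cre is also active outside the genitalia, in the adrenal glands and in the testes. No hormone was measured in these libraries, and ablation within the penis and any effect through those glands cannot be told apart. The study's methods treat the libraries as biological replicates, the labels do not say whether they came from separate litters, and the p-values given below for other genes measure only the spread between these 4 libraries.

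Hyaluronan is a long unsulfated polysaccharide made at the plasma membrane by the synthases Has1, Has2 and Has3 and extruded into the extracellular space, where it holds water and loosens the matrix of growing mesenchyme. Cd44 is its main cell surface receptor. The proteoglycan versican (Vcan) binds it through a globular domain, the link protein Hapln1 stabilizes that bond, and the secreted protein TSG-6 (Tnfaip6) transfers protein chains onto hyaluronan and cross-links it. Vcan-rich hyaluronan matrix is typical of embryonic mesenchyme and of cartilage precursors.

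Each library held between 11343 and 12580 cells and between 50779551 and 73577028 unique molecular identifiers (UMIs, each marking 1 captured mRNA molecule). After filters on depth, mitochondrial and hemoglobin counts, 31132 of 47040 cells remained. Their median depth was 4700 and 4077 UMIs per cell in DTA- and 3551 and 3560 in DTA+. The upper limit of 7500 UMIs was reached by 21.4% of cells in DTA- replicate 1. In DTA- replicate 2 and DTA+ replicates 1 and 2 it was reached by 11.2%, 9.98% and 10.2%. tdTomato, which Cre switches on in embryos with that allele, had 0 UMIs in both DTA- libraries and 2485 and 2343 in the DTA+ libraries, while Nr5a1 itself had 0, 0, 0 and 2. Absence of Cre and absence of the tdTomato allele cannot be told apart in the DTA- count. The paper describes leaky tdTomato RNA at a low level in most cells. Single cells were not scored for tdTomato here, so whether marked cells remained was not tested. Any pair of libraries shared 31 to 48 cell barcodes, at most 0.423% of a library. The filtered cells formed 27 clusters and 22 populations, named from marker genes where enough of them led a cluster and otherwise by cluster number and leading genes, and 19 populations with at least 20 cells in every library were compared. Counts were summed per library and population and are given as CPM, counts scaled to a common total of UMIs per library and population, since cells of a library are not replicates. In such sums, fewer cells expressing a gene and less RNA per cell cannot be told apart. The library DTA- replicate 1 stood apart in genes induced by tissue dissociation, which summed to 7945 CPM over its cells against 15861, 14083 and 13261 CPM in the other libraries, and values without it are given where it decided a call.

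The 7 genes lie on 5 chromosomes (GRCm38). Cd44 spans chr2:102811141-102901665 and Has2 spans chr15:56665627-56694539, both on the minus strand, and Has2os lies antisense to Has2. Vcan, at chr13:89655312-89742509 on the minus strand, is the next annotated gene after Hapln1, at chr13:89539796-89611652 on the plus strand, with 43.7 kb and 0 genes between them. Tnfaip6 lies at chr2:52038009-52056686 on the plus strand, Has1 at chr17:17843323-17855205 on the minus strand and Has3 at chr8:106870242-106884566 on the plus strand.

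RefSeq's promoter table (GRCm38.p6) had entries for 5 of the 7 genes. The bases upstream of the transcription start of Cd44, Vcan and Tnfaip6 are shown, because these genes were lower together in the corpus cavernosum-like cells of DTA+ penises, and bases inside annotated exons were left out. Capitals mark matches on either strand to TGANTCA, the AP-1 motif, to ACAAT, the core bound by SOX factors, or to AGAACA, an arm of the steroid receptor element that glucocorticoid and androgen receptors bind.
Cd44, chr2:102901666-102901915, minus strand: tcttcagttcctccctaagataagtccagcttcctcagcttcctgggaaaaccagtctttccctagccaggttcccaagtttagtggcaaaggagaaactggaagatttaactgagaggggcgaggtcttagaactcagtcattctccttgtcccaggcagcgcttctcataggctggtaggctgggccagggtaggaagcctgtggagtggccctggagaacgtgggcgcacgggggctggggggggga
Vcan, chr13:89742513-89742762, minus strand: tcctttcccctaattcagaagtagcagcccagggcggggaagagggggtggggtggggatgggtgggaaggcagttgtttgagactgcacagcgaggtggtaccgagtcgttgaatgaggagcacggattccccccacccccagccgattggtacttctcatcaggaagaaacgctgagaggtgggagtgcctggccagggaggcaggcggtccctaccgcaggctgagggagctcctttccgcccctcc
Tnfaip6, chr2:52037863-52038008, plus strand: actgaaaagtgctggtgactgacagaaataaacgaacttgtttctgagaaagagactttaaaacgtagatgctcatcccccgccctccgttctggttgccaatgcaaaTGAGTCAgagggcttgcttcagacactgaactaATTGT
The 250 bases of Cd44 and of Vcan held 0 matches to the 3 motifs. Tnfaip6 held 1 AP-1 match and, on the opposite strand, 1 match to the SOX core in its 146 bases, and the motifs do not overlap there. Among 32851 promoters, 6.75% of 250-base windows held an AP-1 match, 27.7% a SOX core and 16.1% the steroid receptor arm, and 3.86%, 18.3% and 9.99% of 146-base windows did. A match is a description of the letters and not a bound site.

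Of the 133 pairs of a gene and a population, 77 passed the filter on low counts and 56 did not. With edgeR's quasi-likelihood test over all genes of a population, 13 pairs had an adjusted p-value (Benjamini-Hochberg) under 0.05 and are referred to as called, 11 lower and 2 higher in DTA+. Over the same 19 populations 3.17% of all gene and population pairs tested were called. Since the genes were picked from this contrast, nothing is read from their count against that background. Over all kept cells (0.488% of genes called) and over all mesenchymal cells together (1.12% called), none of the 7 genes was called. The calls fell in 7 populations, and 6 of the 13 were in the corpus cavernosum-like cells. For most calls below, of these and of other genes, only losses on leaving out 1 library are listed. Many of them were also lost in other alternatives, such as DESeq2, another resolution or thinned cells.

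**Figure D1:**
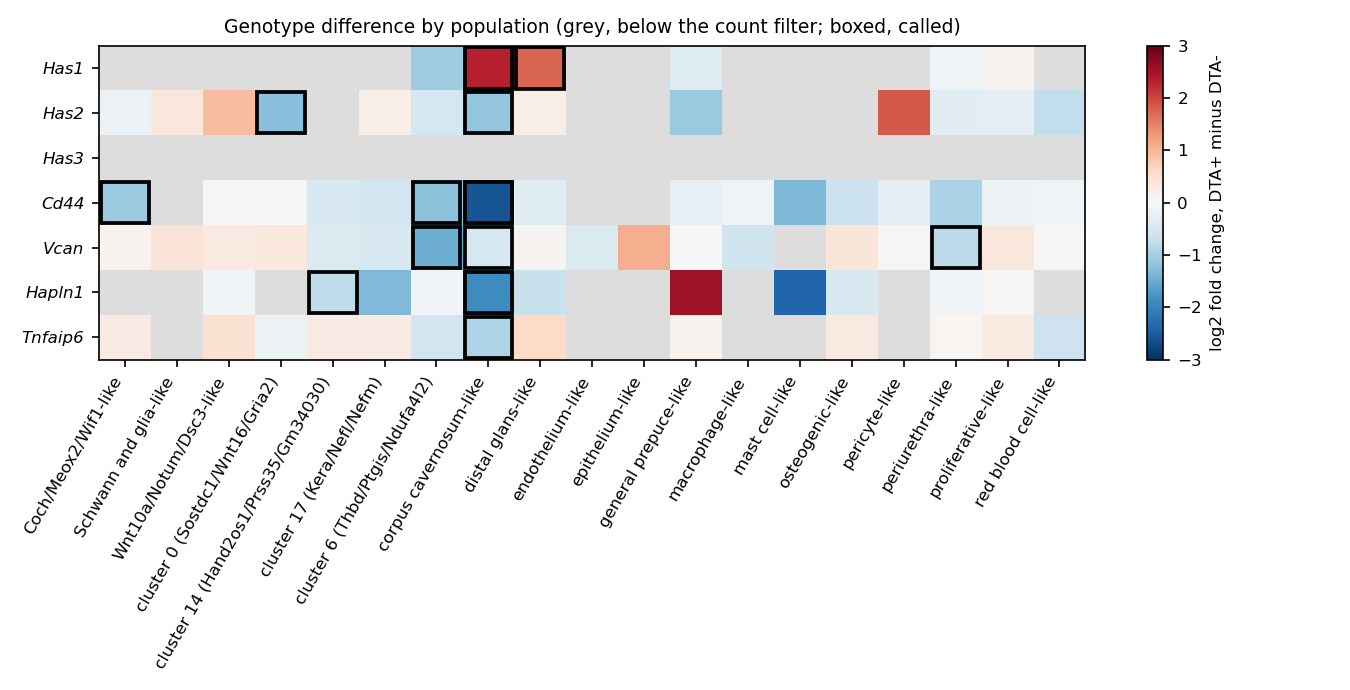
Log2 fold change of the 7 genes between DTA+ and DTA- (color scale, positive where DTA+ was higher) in each of the 19 populations. Grey fields did not pass the filter on low counts, and boxes mark the 13 called pairs, of which 5 lower and 1 higher stand in the corpus cavernosum-like cells.

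In control penises Has2, the synthase that is needed for normal embryogenesis, was highest in the prepuce and in a mesenchymal cluster led by Sostdc1, Wnt16 and Gria2 (cluster 0). DTA- libraries held 121 and 113 CPM of Has2 in the general prepuce-like cells (117 ± 5.54, SD, n = 2) and 68.8 and 104 CPM in cluster 0 (86.5 ± 25.1, SD, n = 2), and the ranges of these populations did not overlap. Next among the 19 populations compared came the Schwann and glia-like cells, at 32.7 ± 11.8 CPM (SD, n = 2). The proliferative-like cells had 27.9 ± 6.26 CPM (SD, n = 2) and the pericyte-like cells 24.9 ± 5.55 CPM (SD, n = 2). These levels did not differ beyond their spread. Populations with too few cells to be compared are left out of this order. In DTA-, subdermal prepuce-like cells held 77.0 and 83.2 CPM of Has2, within the range of cluster 0. Smooth muscle-like cells held 47.5 and 41.9 CPM in DTA-, above the Schwann and glia-like cells. Along the whole order of 19 populations, 5 neighboring steps were free of overlap between the control libraries and 13 were not. Macrophage-like cells stood last at 0 and 2.99 CPM.

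Has2 was lower in DTA+ cells of cluster 0, at 39.1 and 36.7 CPM against 68.8 and 104 CPM, a mean 2.28-fold lower and a log2 fold change of -1.25 ± 0.21 (SE). These sums rest on 109 and 114 UMIs in DTA+ and 213 and 436 in DTA-. Both DTA+ libraries lay below both controls, with log2 fold changes from -1.73 to -0.92 over 16 alternatives (2.13% of genes called in cluster 0). When each cell was thinned to 1000 UMIs, 3.75% and 2.00% of DTA+ cells of cluster 0 and 6.69% and 10.8% of control cells held a Has2 UMI. Endothelium-like cells, taken as a comparison and not as a measured background, held it in 0.704% and 1.47% of control cells. In DTA+ these were 0 of 128 and 0 of 93 endothelium-like cells, which allow shares of up to 2.34% and 3.23%, and such limits cover counting error only.

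Has2 was also called in the corpus cavernosum-like cells, the Sox9- and Col2a1-positive cells of the erectile body, where DTA- libraries had 13.6 and 18.9 CPM and DTA+ libraries 8.02 and 7.75 CPM. The mean was 2.06-fold lower, with a log2 fold change of -1.16 ± 0.31 (SE), from 32 and 49 UMIs against 22 and 21 (7.58% of genes called in these cells). The call was lost without DTA- replicate 2 (-0.85), without DTA+ replicate 1 (-1.17) or without DTA+ replicate 2 (-1.15), and the direction was kept. The DTA+ level was near that of control endothelium-like cells, at 8.48 and 7.27 CPM, but endothelium-like cells of the DTA+ libraries held 0 and 0 Has2 UMIs. The antisense Has2os overlapped between the genotypes there, at 9.77 and 15.5 CPM in DTA- and 12.02 and 13.3 CPM in DTA+.

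The general prepuce-like cells, which took the largest share of Has2 UMIs in 3 of the 4 libraries, had 80.9 and 33.0 CPM in DTA+ against 121 and 113 CPM (log2 fold change -1.12 ± 0.37, SE), and were not called (0.853% of genes called). The DTA+ libraries differed from each other by more than the controls did. Of the clusters merged into this population, cluster 3 held 99.9 and 63.5 CPM in DTA+ against 139 and 113, and cluster 12, which had only 10 cells in DTA- replicate 2, held 10.3 and 14.8 CPM against 38.8 and 110 CPM. Subdermal prepuce-like cells had too few DTA+ cells to be compared: 35 and 15 against 255 and 828 in DTA-. They held 103 and 332 UMIs of Has2 in DTA- (77.0 and 83.2 CPM) and 3 and 1 UMIs in DTA+, and contributed 11.5% and 21.9% of all Has2 UMIs in DTA- but 0.355% and 0.172% in DTA+. When cells were instead clustered after integrating the libraries, 361 and 393 DTA+ cells joined this population, and Has2 stood at 8.92 and 6.93 CPM in DTA+ against 32.2 and 52.5 CPM in DTA-. A further cluster of that clustering, led by Vsnl1, Gria2 and Iyd, held 17.9 and 19.7 CPM in DTA+ against 128 and 117 CPM (log2 fold change -2.77 ± 0.22, SE). Without integration, cluster 15, led by Iyd, held 535 and 305 DTA+ cells against 1 and 7 control cells and was not compared, so some cells fell into different clusters by genotype.

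Pericyte-like cells went the other way, with 132 and 52.2 CPM in DTA+ against 21.0 and 28.8 CPM in DTA-, from 52 and 14 UMIs against 3 and 11, and were not called (log2 fold change 1.83 ± 0.50, SE). Wnt10a Notum Dsc3 mesenchyme-like cells also lay higher in both DTA+ libraries, at 21.1 and 17.8 CPM against 12.8 and 2.82 CPM. Of the 13 populations in which Has2 passed the filter, DTA+ libraries lay below both controls in 5, above both in 2, and overlapped in 6. How many of all genes were separated in this way was not counted, and the populations share the same libraries. Nothing is therefore read from such tallies, here or for the genes below. Over all kept cells Has2 had 28.5 and 17.2 CPM in DTA+ and 29.1 and 46.2 CPM in DTA- (log2 fold change -0.80 ± 0.30, SE).

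Has1, a synthase that in the adult is induced by inflammatory signals, was counted in few UMIs. It was higher in the corpus cavernosum-like cells of DTA+ penises, with 14 and 17 UMIs (5.10 and 6.27 CPM) against 1 and 4 UMIs (0.425 and 1.55 CPM), a log2 fold change of 2.33 ± 0.62 (SE). In the distal glans-like cells it had 20 and 29 UMIs (7.20 and 5.24 CPM) in DTA+ against 6 and 6 UMIs (1.37 and 2.27 CPM), a log2 fold change of 1.75 ± 0.48 (SE), with 5.44% of genes called there. These were the 2 calls in the higher direction. Each was lost when DTA- replicate 1 was left out (1.73 and 1.36), when DTA+ replicate 1 was left out (2.49 and 1.55) and when DTA+ replicate 2 was left out (2.16 and 2.00).

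In the other 4 populations in which Has1 passed the filter the genotypes overlapped. The highest control value was in cluster 6, led by Thbd, Ptgis and Ndufa4l2, where libraries ranged from 7.39 to 28.2 CPM in DTA- and from 3.78 to 13.3 CPM in DTA+. Over all kept cells Has1 had 2.99 and 9.14 CPM in DTA- and 6.96 and 5.59 CPM in DTA+ (log2 fold change -0.03 ± 0.47, SE). The controls differed from each other by more than the genotypes did.

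Has3, the synthase known from epithelia such as epidermis, passed the filter in none of the 19 populations. All kept cells together gave 14 and 23 UMIs in DTA- and 33 and 31 in DTA+, and the log2 fold change of 0.73 ± 0.37 (SE) was not called. Epithelium-like cells held the highest level, at 14.1 and 2.79 CPM in DTA- and 17.4 and 12.03 CPM in DTA+, from 6, 1, 10 and 4 UMIs. At this depth a difference in Has3 within a population was not detectable.

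**Figure D2:**
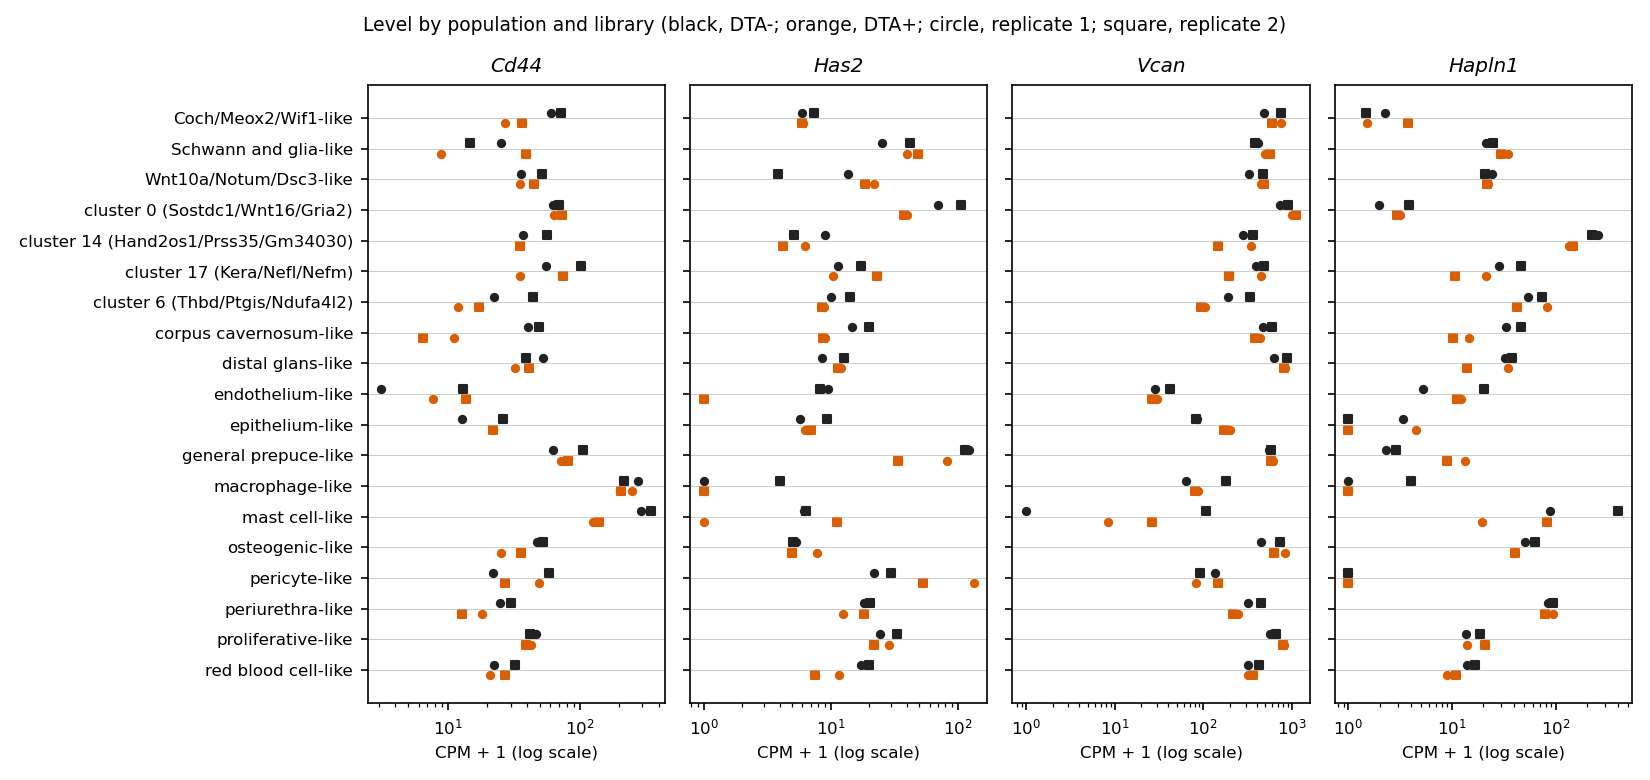
CPM plus 1 (log axis) of Cd44, Has2, Vcan and Hapln1 in each of the 19 populations, with a point for each library. Cd44 was highest in the mast cell-like and macrophage-like cells, Has2 in the general prepuce-like cells and cluster 0, Vcan in mesenchyme and Hapln1 in cluster 14 and the mast cell-like cells.

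Cd44, the hyaluronan receptor, is carried by most leukocytes and by many mesenchymal cells. Control levels were highest in the mast cell-like cells, at 293 and 349 CPM (321 ± 39.4, SD, n = 2), and in the macrophage-like cells, at 277 and 215 CPM (246 ± 43.7, SD, n = 2). Each of these stood apart from the next population in the order, but their order depended on the clustering. Clustered after integration, a small cluster led by S100a9 and S100a8 (12, 7, 2 and 5 cells) held 788 and 806 CPM in DTA-. Mast cell-like cells then held 140 and 258 CPM and overlapped with the macrophage-like cells at 306 and 224 CPM. They were followed by the general prepuce-like cells at 83.9 ± 31.1 CPM (SD, n = 2), cluster 17 (Kera, Nefl, Nefm) at 78.6 ± 33.3 (SD, n = 2), cluster 0 at 65.6 ± 4.63 (SD, n = 2) and the Coch Meox2 Wif1 mesenchyme-like cells at 65.2 ± 7.72 CPM (SD, n = 2), which were not separable. Corpus cavernosum-like cells, at 43.7 ± 5.94 CPM (SD, n = 2), came in the middle of the order, and endothelium-like cells last, at 2.12 and 12.1 CPM. Between 86.3% and 91.0% of all Cd44 UMIs of a library came from mesenchyme, which made up 90.5% to 94.6% of kept cells.

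In the corpus cavernosum-like cells Cd44 was at 39.5 and 47.9 CPM in DTA- (43.7 ± 5.94, SD, n = 2) and at 10.2 and 5.53 CPM in DTA+ (7.87 ± 3.30, SD, n = 2). The mean was 5.56-fold lower, with a log2 fold change of -2.58 ± 0.28 (SE), from 93 and 124 UMIs against 28 and 15. Over 16 alternatives its log2 fold change ranged from -3.07 to -2.06. Cells holding a Cd44 UMI made up 15.4% and 15.6% of these cells in DTA- and 3.26% and 1.79% in DTA+, at median depths of 5200 and 4418 against 3193 and 3408 UMIs per cell. After thinning to 1000 UMIs the shares were 3.48% and 3.61% against 1.38% and 0.412%, while among endothelium-like cells they were 0 of 142 (which allows up to 2.11%) and 0.735% in DTA- and 0 of 128 and 1.08% in DTA+, at median depths of 3172, 2562, 3644 and 4265 UMIs. The DTA+ levels of 10.2 and 5.53 CPM lay within the range of the endothelium-like cells of the 4 libraries, 2.12 to 12.7 CPM. Endothelium-like cells are a comparison and not a measured background. Among cells removed by the hemoglobin limits, Cd44 stood at 1.54 and 0.357 CPM in DTA+. Without thinning, 0.533% and 0.130% of those cells held a Cd44 UMI, at median depths of 3459 and 3508 UMIs. Whether the remaining Cd44 was expression or free RNA was not tested.

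Cd44 was lower as well in the Coch Meox2 Wif1 mesenchyme-like cells, at 26.0 and 35.7 CPM in DTA+ against 59.8 and 70.7 CPM in DTA- (log2 fold change -1.12 ± 0.22, SE). These cells had 9.16% of all genes called, and the call was lost without DTA+ replicate 1 (-0.89). In cluster 6 Cd44 had 10.97 and 16.4 CPM in DTA+ against 21.4 and 43.7 CPM in DTA- (log2 fold change -1.22 ± 0.35, SE), with 11.8% of genes called there. That call was lost in 7 of the 16 alternatives: without DTA- replicate 2 (-0.67), without DTA+ replicate 1 (-0.98), with DESeq2, with no upper limit on UMIs, at resolutions 0.4 and 1.2 and with thinned cells.

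Mast cell-like cells, with 39 to 65 cells per library, had 124 and 139 CPM of Cd44 in DTA+ (132 ± 10.2, SD, n = 2) against 293 and 349 CPM in DTA-, a log2 fold change of -1.34 ± 0.26 (SE) that was not called. Clustered after integration, mast cell-like cells had 116 and 91.9 CPM in DTA+ against 140 and 258 CPM in DTA- (log2 fold change -0.91 ± 0.38, SE). The macrophage-like cells overlapped, at 250.4 and 207 CPM in DTA+ against 277 and 215 CPM. Periurethra-like cells, which lie around the closing urethra, had 17.1 and 11.9 CPM against 23.9 and 29.2 CPM and the osteogenic-like cells 24.2 and 34.7 CPM against 46.6 and 51.6 CPM, without a call in either. In cluster 0, where Has2 was lower, Cd44 was at 63.5 and 72.7 CPM in DTA+ and 62.3 and 68.9 CPM in DTA- (log2 fold change 0.00 ± 0.18, SE). As a description only, the DTA+ libraries lay below both controls in 7 of the 16 populations in which Cd44 passed the filter, above them in 0, and overlapped in 9.

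Vcan, the large chondroitin sulfate proteoglycan, drew between 96.5% and 97.8% of its UMIs from mesenchyme, which made up 90.5% to 94.6% of kept cells. Among the 19 populations compared, control levels ran from 816 ± 130.4 CPM (SD, n = 2) in cluster 0 and 751 ± 178 CPM (SD, n = 2) in the distal glans-like cells down to 34.4 ± 9.62 CPM (SD, n = 2) in the endothelium-like cells. Neighbors in this order mostly overlapped, with 2 of 18 steps free of overlap. Corpus cavernosum-like cells had 534 ± 89.2 CPM (SD, n = 2), periurethra-like cells 385 ± 90.1 CPM (SD, n = 2) and cluster 6 265 ± 105 CPM (SD, n = 2). Outside the mesenchyme, Schwann and glia-like cells had 394 ± 21.7 CPM (SD, n = 2) and red blood cell-like cells 373 ± 71.8 CPM (SD, n = 2).

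Over all kept cells Vcan did not differ beyond the spread of the controls, at 595 and 556 CPM in DTA+ and 462 and 629 CPM in DTA- (log2 fold change 0.00 ± 0.15, SE). Single populations differed in either direction. Cluster 6 had 103 and 94.5 CPM in DTA+ against 191 and 339.9 CPM (log2 fold change -1.46 ± 0.22, SE), and ranged from -1.82 to -1.01 with any 1 library left out. Over all 16 alternatives the range was -1.82 to -0.56. Its call was lost with no upper limit on UMIs per cell and at resolutions 0.4 and 1.2. In the periurethra-like cells Vcan had 243 and 218 CPM against 322 and 449 CPM (log2 fold change -0.79 ± 0.18, SE, with 3.66% of genes called), and the call was lost without DTA- replicate 2 (-0.54). That call was also lost without TMM scaling, at resolution 0.4 and with thinned cells. The lower values came from cluster 9 of these cells, with 145 and 177 CPM against 354 and 469 CPM, while cluster 8 overlapped at 294 and 258 against 286 and 430 CPM.

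In the corpus cavernosum-like cells Vcan had 430.3 and 378 CPM in DTA+ against 471 and 597 CPM in DTA-, a mean 1.32-fold lower (log2 fold change -0.52 ± 0.15, SE). This call was lost without DTA- replicate 2 (-0.29), without DTA+ replicate 1 (-0.59) and without DTA+ replicate 2 (-0.44). Of its thinned cells 28.1% and 26.1% held a Vcan UMI in DTA+ against 34.6% and 41.1% in DTA-, where endothelium-like cells had 0.781%, 2.15% and 2.11%, 6.62%.

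Higher values in both DTA+ libraries were found in cluster 0, at 998 and 1113 CPM against 724 and 908 CPM (log2 fold change 0.32 ± 0.16, SE), in the proliferative-like cells, at 804 and 787 against 558 and 668 CPM (0.33 ± 0.13, SE, with 0.499% of genes called), and in the epithelium-like cells, at 197 and 168 against 84.5 and 80.9 CPM (1.08 ± 0.26, SE). None of these passed the threshold. Distal glans-like cells overlapped, with a log2 fold change of 0.09 ± 0.13 (SE), and general prepuce-like cells had 613 and 586 CPM in DTA+ against 546 and 581 CPM, a log2 fold change of -0.01 ± 0.15 (SE) after TMM scaling. The merged prepuce clusters went opposite ways. Cluster 3 held 666 and 1099 CPM in DTA+ against 551 and 580 CPM in DTA-. Cluster 12, with only 10 cells in DTA- replicate 2, held 415 and 281 CPM against 523 and 743 CPM. Of 18 populations that passed the filter, DTA+ lay below both controls in 3, above them in 5, and overlapped in 10, given as a description only.

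**Figure D3:**
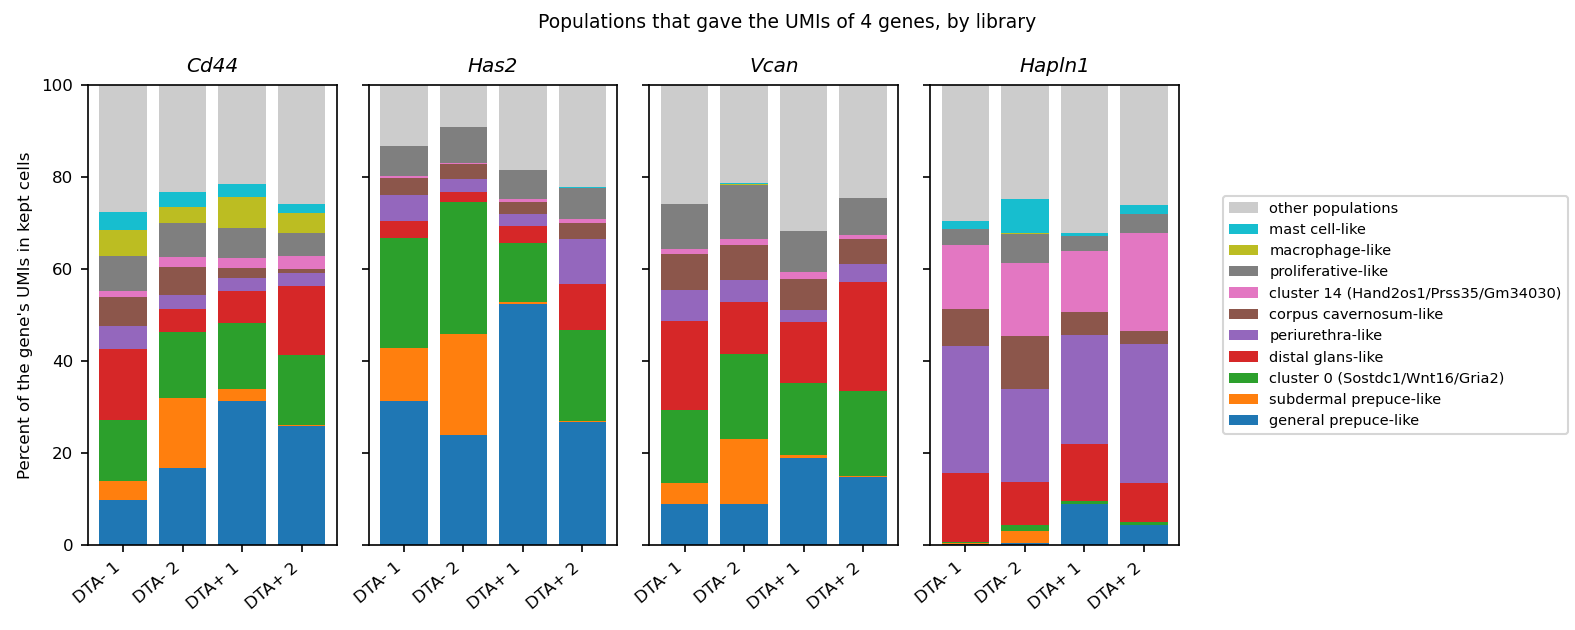
Percent of all UMIs of Cd44, Has2, Vcan and Hapln1 in each library (stacked bars) that came from each population. For Has2 the subdermal prepuce-like cells gave 11.5% and 21.9% in DTA- and 0.355% and 0.172% in DTA+, and for Hapln1 the corpus cavernosum-like cells gave 8.20% and 11.5% in DTA- and 4.85% and 2.92% in DTA+.

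Hapln1, the link protein, had its highest steady control level in cluster 14. This cluster, led by Hand2os1, Prss35 and Gm34030, held 254 and 225 CPM in DTA- (239.6 ± 20.2, SD, n = 2). It was followed by the periurethra-like cells at 83.4 and 92.8 CPM (88.1 ± 6.68, SD, n = 2), cluster 6 at 63.1 ± 14.9 CPM (SD, n = 2) and the osteogenic-like cells at 56.1 ± 9.02 CPM (SD, n = 2). Pericyte-like cells held 0 UMIs in every library. The mast cell-like cells had a mean of 245 CPM that rested on libraries of 87.5 and 403 CPM, and 7 of the 18 steps of the order were free of overlap.

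Corpus cavernosum-like cells had 31.9 and 45.6 CPM of Hapln1 in DTA- (38.7 ± 9.71, SD, n = 2) and 13.5 and 9.22 CPM in DTA+. That is a mean 3.41-fold lower and a log2 fold change of -1.88 ± 0.27 (SE), with values from -2.16 to -1.55 over 16 alternatives. The thinned share of cells with a Hapln1 UMI was 1.25% and 0.962% in DTA+ against 3.04% and 3.95% in DTA-, and in the endothelium-like cells 0.781% and 1.08% against 1.41% and 2.94%. Like Cd44, the DTA+ level lay within the range of the endothelium-like cells, which had 11.2 and 10.1 CPM in DTA+ and 4.24 and 19.4 CPM in DTA-.

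In cluster 14, where Hapln1 was high, DTA+ libraries had 135 and 147 CPM, 1.70-fold below the control mean (log2 fold change -0.76 ± 0.18, SE, with 1.47% of genes called). The call was lost without DTA- replicate 1 (-0.70), DTA+ replicate 1 (-0.69) or DTA+ replicate 2 (-0.84). Periurethra-like cells and cluster 6 overlapped, with log2 fold changes of -0.08 ± 0.16 and -0.08 ± 0.26 (SE). The general prepuce-like cells had 68 and 38 UMIs of Hapln1 in DTA+ (12.4 and 8.03 CPM) and 3 and 6 in DTA- (1.29 and 1.87 CPM), a log2 fold change of 2.55 ± 0.49 (SE) that was not called. Nearly all of these UMIs came from cluster 12, with 66 and 36 UMIs in DTA+, which held 284 and 645 DTA+ cells against 85 and 10 control cells, whereas cluster 3 held 2, 5, 2 and 2 UMIs.

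Tnfaip6 encodes TSG-6, the hyaluronan-modifying protein. Among the 19 populations compared, its control levels were highest and not separable in the proliferative-like cells at 94.5 ± 9.35 CPM (SD, n = 2), the general prepuce-like cells at 92.8 ± 30.3 (SD, n = 2) and cluster 0 at 90.4 ± 4.06 CPM (SD, n = 2). Clustered after integration, subdermal prepuce-like cells held 116 and 171 CPM in DTA- against 67.3 and 125 CPM in the general prepuce-like cells. Without integration, where subdermal prepuce-like cells were not compared, Tnfaip6 drew 9.20% and 25.4% of its UMIs from them in DTA- and 1.34% and 0.713% in DTA+. It was called in the corpus cavernosum-like cells, at 12.02 and 16.6 CPM in DTA+ against 23.8 and 26.3 CPM in DTA-, 1.75-fold lower (log2 fold change -0.92 ± 0.26, SE), and lost that call without DTA+ replicate 1 (-0.69) or DTA+ replicate 2 (-1.18). The distal glans-like cells held 35.6 and 57.5 CPM in DTA+ against 33.0 and 27.2 CPM, not called (log2 fold change 0.61 ± 0.22, SE). In the other populations log2 fold changes ran from -0.62 in the red blood cell-like cells to 0.46 in the Wnt10a Notum Dsc3 mesenchyme-like cells. Of 13 populations that passed the filter, DTA+ lay below both controls in 3, above them in 3 and overlapped in 7, given as a description only.

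**Figure D4:**
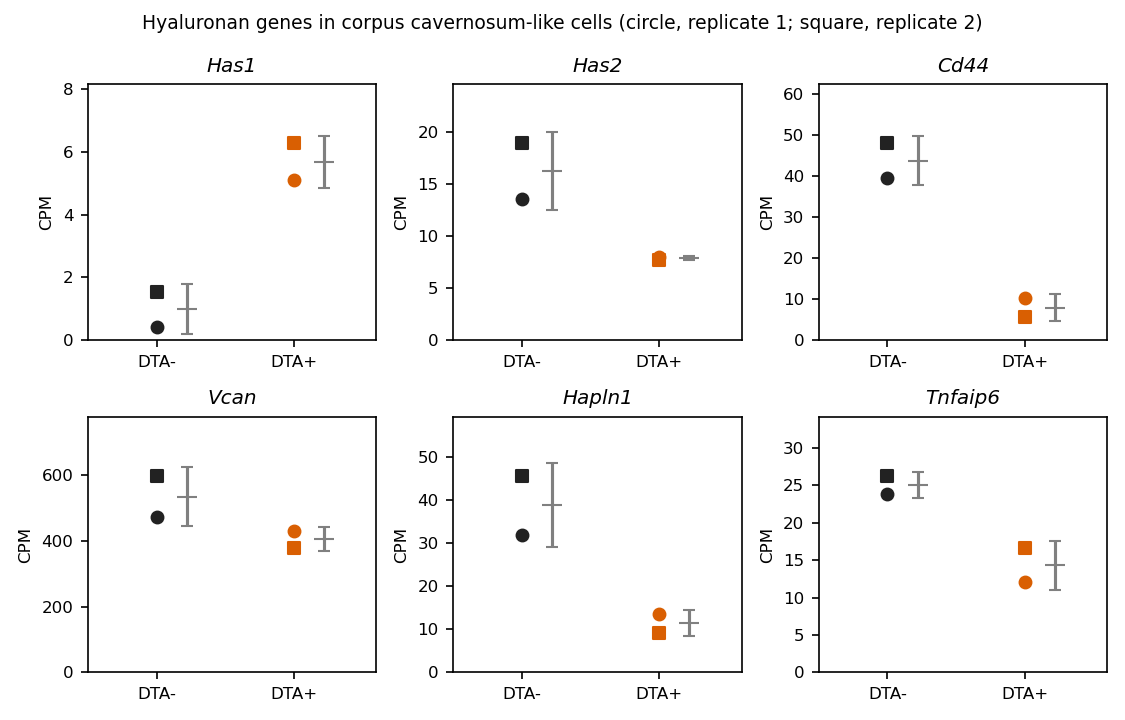
CPM of 6 genes in the corpus cavernosum-like cells of each library (points), with the mean and SD of the 2 libraries per genotype (bars, axes start at 0). Cd44, Has2, Vcan, Hapln1 and Tnfaip6 were lower and Has1 was higher in both DTA+ libraries.

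The corpus cavernosum-like cells numbered 460 and 582 in DTA- and 798 and 728 in DTA+. There Cd44, Has2, Vcan, Hapln1 and Tnfaip6 were lower and Has1 was higher in both DTA+ libraries, while Has3 had 1, 0, 4 and 2 UMIs. How many of all genes were separated in this way in these cells was not counted, so nothing is read from the number of these genes. Of the 2 clusters in this population, cluster 2 held 427, 526, 754 and 691 cells and showed the same directions, with Cd44 at 41.1 and 50.2 CPM in DTA- and 10.0 and 5.56 CPM in DTA+. Cluster 26, with 33 to 56 cells per library, was separated for Cd44 (21.2 and 30.4 against 12.1 and 5.18 CPM) and overlapped for Vcan, Hapln1 and Has2. Has1 went the other way there, with 1 and 1 UMIs in DTA- (5.31 and 3.38 CPM) and 0 and 0 in DTA+. The corpus cavernosum markers summed to 1446 and 1527 CPM in DTA- and 1453 and 1519 CPM in DTA+, and 0 of 9 were called.

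Markers of other cells did move with these values. In the same cells the distal glans list summed to 767 and 613 CPM in DTA- and 948 and 1135 CPM in DTA+ (3 of 7 called higher), the Coch Meox2 Wif1 list to 262 and 346 against 654 and 570 CPM (2 of 2 higher), and the proliferative list to 335 and 515 against 400.4 and 321 CPM (3 of 7 lower). Red blood cell genes summed to 2252, 1486, 1256 and 253 CPM (2 of 4 lower) and mast cell genes to 23.8 and 29.0 against 12.8 and 7.75 CPM (1 of 2 lower). Genes induced by tissue dissociation summed to 7739 and 17559 CPM in DTA- and 13117 and 14015 CPM in DTA+ (1 lower). Fkbp5, which glucocorticoids induce, had 6.19 and 6.64 CPM in DTA+ against 26.3 and 29.8 CPM (log2 fold change -2.23), and was called lower in 13 of the 15 populations in which it was tested. It was 1 of 12 listed glucocorticoid-induced genes. Of 157 pairs of such a gene and a population, 40 were called lower and 5 higher. That is 28.7%, against 3.17% of all pairs. In the corpus cavernosum-like cells Zbtb16 and Mt1 of that list were called lower too. Sgk1 was called higher there, at 33.5 and 28.4 CPM against 7.22 and 7.73 CPM (log2 fold change 1.93). The part of each of these in the values of the hyaluronan genes was not tested.

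Beside other calls, cluster 6 had smooth muscle genes at 33.7 and 25.8 CPM in DTA+ against 110.1 and 132 CPM (3 of 3 lower) and distal glans genes at 1081 and 1146 against 679 and 589 CPM (3 of 7 higher). Cluster 0 had the Coch Meox2 Wif1 list at 175 and 206 CPM against 365 and 346 CPM (1 of 3 lower) and smooth muscle genes at 207 and 188 against 212 and 425 CPM (2 of 5 lower). In the periurethra-like cells the general prepuce list summed to 1359 and 1278 CPM in DTA+ against 603 and 522 CPM (1 of 5 higher), the distal glans list to 1784 and 1757 against 1208 and 1132 CPM (3 of 8 higher) and the subdermal prepuce list to 879 and 545 against 344 and 450.3 CPM (2 of 5 higher). Cluster 14 had distal glans genes at 2449 and 2722 CPM against 1721 and 1639 CPM (3 of 7 higher). The Coch Meox2 Wif1 mesenchyme-like cells had their own list at 1804 and 1438 against 1017 and 1180.4 CPM (2 of 3 higher) and the distal glans-like cells theirs at 3190 and 3759 against 2611 and 2414 CPM (3 of 8 higher). Red blood cell genes were called lower in both (4 of 4 each). Of the dissociation stress genes, 5 were called higher and 2 lower in the Coch Meox2 Wif1 mesenchyme-like cells, and 4 were called higher in the distal glans-like cells. Fos, Junb, Egr1, Ier3, Socs3 and Nr4a1 were called higher in the osteogenic-like cells, and Junb and Hspa1a were called lower in cluster 6. Their part in the values of the hyaluronan and pathway genes there was not tested either.

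The other genes of the pathway came from 9 lists with 64 genes: hyaluronan precursor synthesis and breakdown, other receptors, other proteoglycans and link proteins, heavy chains and soluble binders, versican proteases and partners, and Cd44 partners and splicing factors. Over the 19 populations 557 pairs of a list gene and a population were tested, and 22 of them (3.95%) passed an adjusted p of 0.05, against 3.17% of all pairs. DTA+ was higher in 8 and lower in 14, in 10 populations and 16 distinct genes. The lists were drawn up with results of these data known, so the counts are descriptive.

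Of 91 pairs tested for the breakdown list, 2 were called (2.20%), both higher and both in the corpus cavernosum-like cells. Cemip, a hyaluronan-depolymerizing protein, went from 0.850 and 1.16 CPM to 4.74 and 5.16 CPM (log2 fold change 2.13 ± 0.60 SE, adjusted p = 0.0427, edgeR quasi-likelihood test), and Cemip2, a cell surface hyaluronidase, from 25.1 and 24.3 to 50.6 and 40.9 CPM (0.78 ± 0.20 SE, adjusted p = 0.0289). In these cells 1 UMI stood for 0.425 CPM in DTA- replicate 1, so Cemip rested on few UMIs. The soluble hyaluronan matrix protein Ptx3, a partner of TSG-6, rose there from 128 and 87.7 to 183 and 208 CPM (0.76 ± 0.17 SE, adjusted p = 0.0157). These were the 3 of 35 list genes tested in these cells that passed (8.57%), near the 7.58% of all genes called there, and the lists' median log2 fold change was -0.12 against -0.01 for all genes. Cemip lost its call without DTA- replicate 1 (1.93), DTA+ replicate 1 (2.21) or DTA+ replicate 2 (2.05), Cemip2 without DTA+ replicate 1 (0.64) or DTA+ replicate 2 (0.91), and Ptx3 without DTA+ replicate 2 (0.64). With the replicate number as a block, Cemip, Cemip2 and, among the hyaluronan genes, Vcan and Tnfaip6 in these cells were no longer called.

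In cluster 6, where 11.8% of all genes were called, 8 of the 34 list genes tested passed (23.5%), all lower, and 26 did not. The 8 were 3 of 8 tested precursor synthesis genes, 4 of 6 versican partners and 1 of 5 versican proteases. The lists' median log2 fold change was -0.25 against 0.01 for all genes. Gfpt2, at the rate-limiting step toward UDP-N-acetylglucosamine, fell from 20.5 and 29.3 to 10.2 and 10.7 CPM (-1.26 ± 0.32 SE, adjusted p = 0.0153, edgeR), and Pgm3 of the same route from 27.5 and 28.2 to 14.9 and 13.2 CPM (-1.03 ± 0.28 SE, adjusted p = 0.0219). Adamts1, a versican-cleaving protease, fell from 87.9 and 179 to 61.1 and 75.0 CPM (-0.99 ± 0.26 SE, adjusted p = 0.0166). Ugdh, which makes UDP-glucuronic acid, fell as well (-0.97, adjusted p = 0.0263), as did the versican partners Fn1 (-0.85, adjusted p = 0.0106), Fbn2 (-0.72, adjusted p = 0.00398), Fbn1 (-0.67, adjusted p = 0.0173) and Fbln1 (-0.55, adjusted p = 0.0282). Gfpt2 lost its call without DTA+ replicate 1 (-1.23) or DTA+ replicate 2 (-1.31), Pgm3 without DTA+ replicate 1 (-1.10) or DTA+ replicate 2 (-0.95), and Adamts1 without DTA- replicate 2 (-0.41). Without DTA- replicate 2 the calls of Ugdh (-0.35), Fn1 (-0.48), Fbn1 (-0.44) and Fbln1 (-0.38) were lost too. Fn1 was also lost without DTA+ replicate 1 (-0.75), Fbn1 without DTA+ replicate 2 (-0.58) and Fbln1 without DTA+ replicate 1 (-0.64) or DTA+ replicate 2 (-0.45), while Fbn2 kept its call with any 1 library left out (-0.89 to -0.55). All 8 calls were lost at resolution 1.2, and all but that of Fbn2 with no upper limit on UMIs per cell. Pgm3, Adamts1 and Fbn1 changed direction at resolution 1.2.

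Fbn2, a microfibril protein of the versican partner list, fell in 3 further populations. In the osteogenic-like cells it went from 342 and 501 to 178 and 225 CPM (-1.02 ± 0.19 SE, adjusted p = 0.00772, edgeR; 2.99% of genes called), in cluster 14 from 628 and 944 to 495 and 430.4 CPM (-0.78 ± 0.18 SE, adjusted p = 0.0261) and in the distal glans-like cells from 401 and 438 to 309 and 278 CPM (-0.56 ± 0.12 SE, adjusted p = 0.00956). The calls were lost without DTA+ replicate 1 in the osteogenic-like cells (-0.87), without DTA- replicate 2 (-0.43) or DTA+ replicate 1 (-0.87) in cluster 14 and without DTA+ replicate 2 in the distal glans-like cells (-0.48). Among versican proteases Adamts5 fell in cluster 0, from 5.49 and 11.7 to 1.79 and 0.643 CPM (-2.90 ± 0.57 SE, adjusted p = 0.0182, edgeR), where Vcan was at 998 and 1113 CPM in DTA+, and was not called without DTA- replicate 2 (-2.23). At these levels Adamts5 rested on few UMIs in DTA+. Adamts1 rose in the Coch Meox2 Wif1 mesenchyme-like cells, from 9.89 and 15.6 to 25.5 and 24.5 CPM (0.96 ± 0.28 SE, adjusted p = 0.0350), and Gnpnat1, of precursor synthesis, fell there (-0.82 ± 0.25 SE, adjusted p = 0.0417). Both of these calls were lost without DTA- replicate 1 (0.66 and -0.72), DTA+ replicate 1 (0.93 and -0.67) or DTA+ replicate 2 (1.00 and -0.94).

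Ezr encodes ezrin, which ties the tail of Cd44 to the actin cytoskeleton, and it changed in opposite directions between populations. It fell in the periurethra-like cells from 20.6 and 20.6 to 1.56 and 4.87 CPM (-2.56 ± 0.39 SE, adjusted p = 0.00521, edgeR) and kept that call with any 1 library left out. It rose in the general prepuce-like cells from 15.5 and 13.1 to 42.7 and 41.2 CPM (1.46 ± 0.22 SE, adjusted p = 0.0272, edgeR), and in the proliferative-like cells from 14.99 and 20.01 to 51.2 and 41.7 CPM (1.35 ± 0.23 SE, adjusted p = 0.0228). The prepuce call was lost in 7 of 16 alternatives: without DTA- replicate 1 (1.57) or DTA- replicate 2 (1.35), and with no upper limit on UMIs. It was also lost at resolution 1.2, after integration, without high doublet scores and with thinned cells. Cluster 12 of the general prepuce-like cells held 85 and 10 control cells against 284 and 645 in DTA+, and Ezr was not split by cluster. In the distal glans-like cells Tlr2, a receptor for hyaluronan fragments, rose from 3.87 and 4.53 to 10.8 and 12.8 CPM (1.49 ± 0.31 SE, adjusted p = 0.00987), and Adam10, a protease that sheds Cd44, from 57.4 and 54.4 to 92.5 and 80.6 CPM (0.58 ± 0.16 SE, adjusted p = 0.0417). Tlr2 was not called without DTA- replicate 1 (1.36) or DTA+ replicate 2 (1.33), and Adam10 not without DTA+ replicate 1 (0.48) or DTA+ replicate 2 (0.68). No gene of these lists was called over all kept cells, where 51 were tested.

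**Figure D5:**
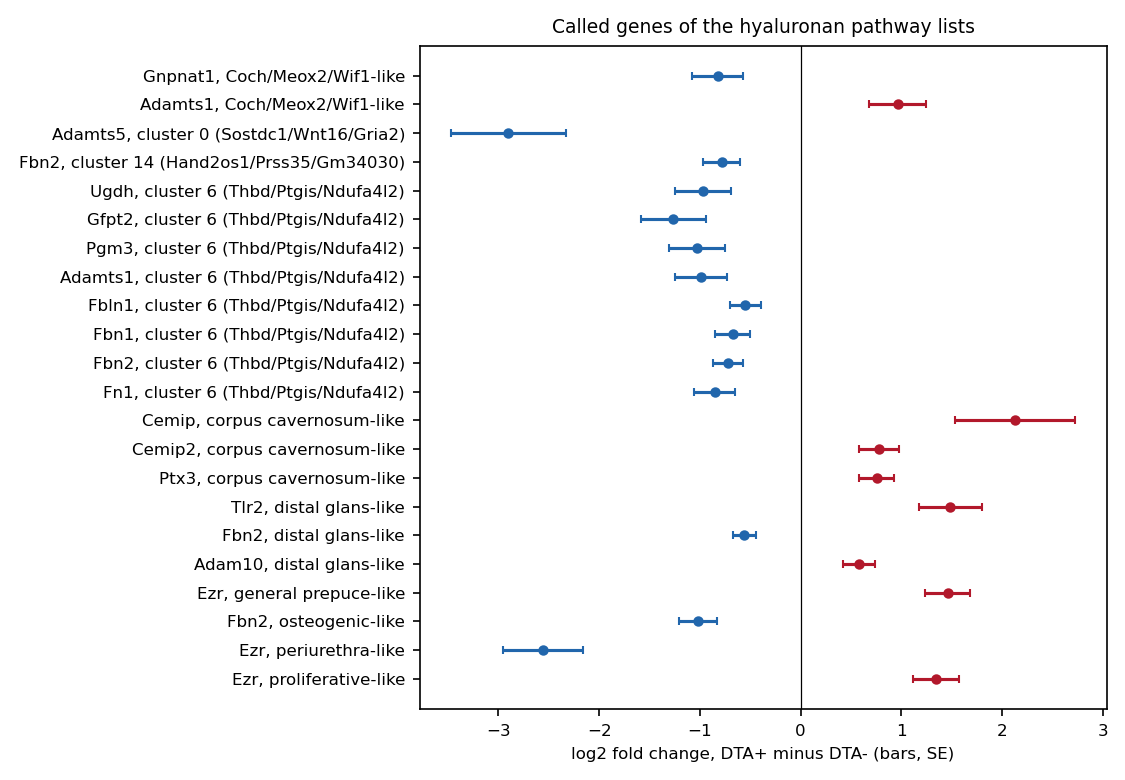
Log2 fold change (DTA+ over DTA-) with its SE for the 22 called pairs of a pathway list gene and a population. In the corpus cavernosum-like cells the 3 called genes were higher, in cluster 6 the 8 called genes were lower, and Ezr and Adamts1 stand on both sides of 0.

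Across the 19 populations the levels of the genes, averaged over the libraries of both genotypes, were compared with those of 6337 genes, by Pearson's r of log2(mean CPM + 10). Differences between the genotypes therefore enter these values. The populations share libraries, and cells with free RNA add a common component. Cd44 was most like Snx18 and Thbs1 (r = 0.875 each), Msrb1 (0.851), Emilin2 (0.849) and Taok3 (0.842), Has2 most like Peli2 (0.818), Rarres2 (0.815) and Pros1 (0.782), and Vcan most like Gnl2 (0.883), Pspc1 (0.879) and Epb41l3 (0.872). Within the system Has1 and Tnfaip6 were closest (0.702), followed by Vcan and Tnfaip6 (0.671) and Has2 and Tnfaip6 (0.557). Vcan and Hapln1, neighbors on chromosome 13, had r = -0.10 across populations, and Cd44 had r between -0.25 and 0.00 with the other genes.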

How the data were processed

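Penis cells were measured in 4 libraries, 2 per genotype. The authors aligned reads with Cell Ranger (4.0.0 per the labels; the methods name an earlier release) to mm10 plus reporter sequences and deposited raw UMI counts per gene and cell. Kept cells had over 1000 and under 7500 UMIs, with mitochondrial and Hba counts each up to 25% and Hbb up to 50%. They were clustered with Seurat 5.3.0 (R 4.3.3; 2000 variable genes minus the 7, 30 components, resolution 0.8), and a name needed 3 enriched markers of its class. Doublets stayed in. Scrublet (scanpy 1.11.5) marked 1 cell, which does not show that doublets were few. An alternative left out the 662 to 799 cells per library with the highest scores, from an assumed 0.8% of doublets per 1000 cells. Sums per library and population went into edgeR 4.0.16 (TMM scaling, filterByExpr) with genotype as the only term, whereas the study fitted likelihood ratio tests with replicate as a random effect. DESeq2 1.42.0 was an alternative. Code was tested on simulated data. An exact permutation test of 2 against 2 libraries cannot go below p = 0.333. Named list genes were up to 3 per direction and population with the largest called changes; further genes of cluster 6 were added after their values were seen. The 7 genes and the lists were chosen with earlier results of these data known. Remaining steps used Python 3.11.15.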

Additional observations from a re-analysis of the deposited data

Results flagged for a closer look

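Some genes moved in opposite directions in 2 populations, with every DTA+ library below both controls in the first and above both in the second. The difference between the populations was not tested in any of these cases, and each pair was picked for its contrast. Has2 differed by -3.08 on the log2 scale between cluster 0 (-1.25 ± 0.21, SE) and the pericyte-like cells (1.83 ± 0.50, not called, from 3 and 11 UMIs in DTA-). For Vcan the difference was -2.54 between cluster 6 (-1.46 ± 0.22) and the epithelium-like cells (1.08 ± 0.26, not called). Hapln1 differed by -4.43 between the corpus cavernosum-like cells (-1.88 ± 0.27) and the general prepuce-like cells (2.55 ± 0.49, not called), where its UMIs came mostly from cluster 12. Tnfaip6 differed by -1.52 between the corpus cavernosum-like cells (-0.92 ± 0.26) and the distal glans-like cells (0.61 ± 0.22, not called). Among pathway genes, Adamts1 differed by -1.95 between cluster 6 (-0.99) and the Coch Meox2 Wif1 mesenchyme-like cells (0.96), and Ezr by -4.02 between the periurethra-like cells (-2.56) and the general prepuce-like cells (1.46), both called on either side. Both Adamts1 calls and the prepuce call of Ezr were lost in several alternatives.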

How the results depend on the processing

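Of the 13 called pairs of a hyaluronan gene and a population, 3 were kept in all 16 alternatives (Cd44 and Hapln1 in the corpus cavernosum-like cells and Has2 in cluster 0) and 0 reversed, from which nothing is read, since the genes were chosen from this contrast. Of the 22 pathway pairs, 1 was kept in all and 3 reversed, all at resolution 1.2 in cluster 6: Pgm3 to 0.022, Adamts1 to 1.06 and Fbn1 to 0.26. The 13, 22 and, over all genes, 4852 calls became 6, 10 and 2215 with DESeq2, 22, 41 and 8076 with no filter on low counts, and 6, 7 and 1461 with cells thinned to 1000 UMIs, which leaves fewer UMIs. At resolution 0.4 the hyaluronan calls became 8. Leaving out 1 library gave 9 to 15, 16 to 35 and 3352 to 8561 calls, with 35 and 8561 without DTA- replicate 2. The replicate block gave 13, 27 and 5760 calls. Same-numbered libraries deviated in opposite directions (correlation -0.44 over all kept cells), so the numbers do not pair them. A crossed replicate block, chosen after seeing the data, gave 19, 40 and 8703. The causes were not tested. Genes with few UMIs, such as Has1 and Has3, are limited by depth.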
